A study of Mus musculus with 4 samples.

Results

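Acta2, Tagln, Pdgfrb, Pdgfra, Vim, Des, Cnn1, Myl9, Tpm2 and Thy1 are genes known from activated hepatic stellate cells and myofibroblasts, and their signals were followed in regenerating mouse liver. The members are all probe sets on the array whose only gene symbol in the platform annotation was one of these 10 names, which gave 21 of the 34945 probe sets with 1 symbol. A probe set is a group of short oligonucleotides that together report 1 transcript as 1 signal. The mice were athymic nude mice of the strain BALB/c nu/nu, which are short of mature T cells. Per the labels 4 arrays were made, 2 for the OGFRL1 group, transplanted with mesenchymal stem cells from human bone marrow that expressed OGFRL1, and 2 for the EGFP group, transplanted with such cells that expressed the control protein EGFP. Both groups had been given carbon tetrachloride, a liver toxin that leads to fibrosis when given again and again, in 23 doses of 0.25 ml/kg. They then received 1000000 cells in the spleen, had part of the liver removed on day 21 and were sampled on day 8 after that. The treatment label also holds a fragment on albumin in phosphate-buffered saline before the last toxin dose, which does not say which mice it concerned. The labels give neither the age and sex of the mice nor the number of mice behind each group, so the spread behind each p-value is that between arrays and may in part be technical. The probe sets are for mouse transcripts, the donor cells were human, and no value here separates transcripts of the 2 species.

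Stellate cells lie between the hepatocytes and the sinusoidal endothelium, store vitamin A when quiescent, and on injury turn into contractile, matrix-producing myofibroblasts. Platelet-derived growth factor drives their proliferation through its receptors, while the contractile genes are controlled by serum response factor, which binds the CArG box, a DNA element with a core of A and T between CC and GG. Fibroblasts around the portal veins and vascular smooth muscle cells use many of the same genes, so none of the members belongs to stellate cells alone.

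Promoter sequence is shown for Acta2, Myl9 and Vim, which had higher signals in OGFRL1 livers and were the only members searched whose windows held a motif. The control of Acta2 by serum response factor is textbook knowledge. RefSeq windows were searched for 7 members (Acta2, Myl9, Vim, Tpm2, Pdgfra, Des and Cnn1). Pdgfrb, Tagln and Thy1 were not part of the search. Each line gives the 250 bases before the start used for the window, 5′ to 3′ on the gene's strand, in GRCm38.p6: chr19:34255374-34255623 (minus strand) for Acta2, chr2:156775214-156775463 (plus strand) for Myl9 and chr2:13574061-13574310 (plus strand) for Vim. For Acta2 and Myl9, and for Tpm2, Pdgfra and Cnn1, that start lies inside the annotated span of the gene. For Vim it lies at the edge of that span. Capitals mark a CArG box with at most 1 mismatch, the MCAT element CATTCC that TEAD factors bind (on either strand) and the TATA box TATAAA (on either strand).
Acta2: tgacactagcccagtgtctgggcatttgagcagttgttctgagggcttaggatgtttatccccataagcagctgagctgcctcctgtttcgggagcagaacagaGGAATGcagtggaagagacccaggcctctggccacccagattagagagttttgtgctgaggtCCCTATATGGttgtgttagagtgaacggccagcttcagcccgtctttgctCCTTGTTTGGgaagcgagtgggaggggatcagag
Myl9: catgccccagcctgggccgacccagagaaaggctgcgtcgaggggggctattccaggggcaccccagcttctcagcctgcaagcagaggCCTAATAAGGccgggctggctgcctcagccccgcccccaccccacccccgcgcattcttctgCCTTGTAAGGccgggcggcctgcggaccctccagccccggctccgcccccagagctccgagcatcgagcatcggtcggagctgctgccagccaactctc
Vim: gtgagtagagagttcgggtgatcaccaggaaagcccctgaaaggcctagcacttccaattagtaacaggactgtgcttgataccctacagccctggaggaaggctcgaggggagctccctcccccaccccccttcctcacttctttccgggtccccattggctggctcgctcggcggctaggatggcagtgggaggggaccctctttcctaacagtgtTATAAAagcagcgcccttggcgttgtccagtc
The Acta2 window held 2 CArG boxes with 1 mismatch each, at bases -84 to -75 and -34 to -25 from the start, and 1 MCAT element on the minus strand at -146 to -141. The Myl9 window held an exact CArG box at -161 to -152 and one with 1 mismatch at -99 to -90. The Vim window held a TATA box at -32 to -27 and none of the other motifs. The windows of Tpm2, Pdgfra, Des and Cnn1 held none of these motifs, which says only that these letters are not in these 250 bases. Of all 32544 windows of this length, 1.48% held an exact CArG box, 18.6% one with at most 1 mismatch, 2.97% at least 2 of those, 12.6% the MCAT element and 12.3% the TATA box. No motif overlapped another in the printed windows.

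Of the 10 genes, 9 were bright enough to be tested and all 9 were higher on average in OGFRL1 livers than in EGFP livers, by a median log2 fold change of 0.90, where the median of the 11942 genes tested was 0.042. None of the 9 passed an adjusted p of 0.05 (limma, Benjamini-Hochberg adjustment over all genes tested), a threshold that 0.36% of all genes passed upwards and 0.151% downwards. Acta2 and Vim came closest, with an adjusted p of 0.0684 each. The median of the 9 fold changes was 0.78 without EGFP 1, 1.03 without EGFP 2, 0.75 without OGFRL1 1 and 0.92 without OGFRL1 2. For all genes tested the median was 0.050, 0.024, 0.059 and 0.030 in that order. A log2 fold change above 0 was found for 55.6% of all genes tested. At an unadjusted p under 0.05, 6 of the 9 were higher and 0 lower, where 9.01% of all genes tested were higher and 6.28% lower. Both OGFRL1 arrays were above both EGFP arrays for 8 of the 9, where this held for 27% of all genes tested. All values are MAS5 signals, and fold changes are on the log2(signal + 3.51) scale with the standard error (SE) of the fit. With 2 arrays a group, the number of arrays limits precision, and an exact permutation test of a single value cannot go below a two-sided p of 0.333. In bulk tissue, more cells of a type and more RNA per cell cannot be told apart.

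**Figure D1:**
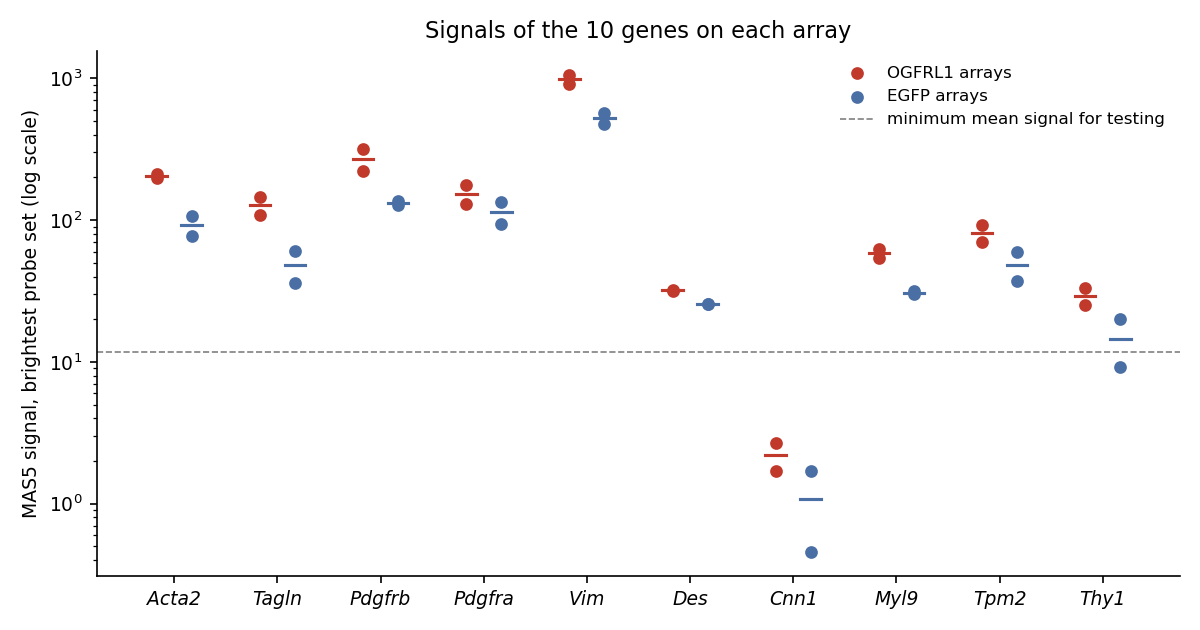
MAS5 signal (log scale) of the brightest probe set of each of the 10 genes, with the OGFRL1 arrays left of the EGFP arrays, a point per array and a bar at the group mean. The groups are apart for 8 of the 9 genes above the dashed testing minimum of 11.6, the arrays overlap for Pdgfra, and Cnn1 lies below the minimum on all 4 arrays.

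Among the contractile genes, Acta2 encodes smooth muscle alpha-actin, the defining protein of the myofibroblast. Its brightest probe set had signals of 213 and 198 on the OGFRL1 arrays, against 76.8 and 107 on the EGFP arrays. The groups did not overlap, and the log2 fold change was 1.15 ± 0.20 (SE) with a 95% interval of 0.67 to 1.63, a larger value than in all but 1.69% of genes tested. The type of this probe set (_s_at) may bind transcripts of related genes. Probe sets of the closest muscle actins were dim and overlapped between the groups. Actg2, enteric smooth muscle actin, had 13.4 and 5.18 on the OGFRL1 arrays, against 5.97 and 11.3 on the EGFP arrays. Acta1, skeletal muscle actin, had 11.4 and 19.3 on the OGFRL1 arrays, against 15.8 and 5.37 on the EGFP arrays. The remaining 2 Acta2 probe sets lay between 0.348 and 5.37 on all arrays and were not tested. As the mean over its 3 probe sets Acta2 had a log2 fold change of only 0.41.

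Tagln encodes transgelin (SM22-alpha), an actin-bundling protein of smooth muscle. It had 108 and 146 on the OGFRL1 arrays, against 60.1 and 35.8 on the EGFP arrays. Its log2 fold change of 1.37 ± 0.28 (SE; 95% interval 0.69 to 2.05, limma adjusted p = 0.1001) was the highest of the 9, although the arrays within each group lay further apart than for Acta2. Myl9 encodes the regulatory light chain that is phosphorylated to start smooth muscle contraction. Its signals were 62.7 and 54.1 in OGFRL1 livers, against 29.98 and 31.6 in EGFP livers, and the groups were apart by more than the range within either (0.85 ± 0.22, adjusted p = 0.145). Tpm2 encodes beta-tropomyosin, which lies along the actin filament. It had 92.5 and 70.2 on the OGFRL1 arrays, against 37.2 and 59.3 on the EGFP arrays, so that the lower OGFRL1 array was only slightly above the higher EGFP array (0.73 ± 0.27, adjusted p = 0.275). A second Tpm2 probe set gave 39.2 and 33.4 in OGFRL1 livers, against 17.5 and 29.8 in EGFP livers (0.59 ± 0.30), and the remaining 2 were below the minimum.

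Cnn1 encodes calponin 1, a marker of differentiated smooth muscle that is used for contractile myofibroblasts. Its only probe set had 1.68 and 2.69 on the OGFRL1 arrays, against 0.457 and 1.69 on the EGFP arrays. These signals are below the pseudocount, the groups overlap, and no fold change is given. The smooth muscle myosin heavy chain Myh11, a defining marker of vascular smooth muscle, was also below the minimum, at 6.22 and 4.40 in OGFRL1 livers and 7.76 and 8.35 in EGFP livers. The contractile members with measurable signals were thus Acta2, Tagln, Myl9 and Tpm2.

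Pdgfrb and Pdgfra encode the beta and alpha receptors for platelet-derived growth factor. Pdgfrb is the main such receptor of stellate cells. Its brighter probe set had 222 and 315 on the OGFRL1 arrays, against 127 and 137 on the EGFP arrays, so every OGFRL1 value was well above both EGFP values (0.99 ± 0.20 SE, 95% interval 0.50 to 1.47, limma adjusted p = 0.0963). Its dimmer probe set had 23.5 and 41.7 in OGFRL1 livers, against 11.9 and 23.7 in EGFP livers. There the groups overlapped, at a log2 fold change of 0.77 ± 0.39.

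Pdgfra was the only tested member whose groups overlapped on the brightest probe set. It had 129.8 and 177 on the OGFRL1 arrays, against 135 and 94.2 on the EGFP arrays, a log2 fold change of 0.41 ± 0.24 with an interval of -0.16 to 0.99 (limma adjusted p = 0.474). Of all genes tested, 14.5% had a log2 fold change at least as high. As the mean over its 3 probe sets, 2 of them below the minimum, the value was 0.027. Within each array, the log2 difference between Pdgfrb and Pdgfra was 0.76 and 0.82 on the OGFRL1 arrays, against -0.085 and 0.53 on the EGFP arrays. The mean difference between the groups was 0.57, and the EGFP arrays alone lay further apart than that, so a difference in the receptors' ratio was not resolved.

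Vim and Des encode vimentin and desmin, intermediate filament proteins. Vimentin is made by all mesenchymal, endothelial and blood cells, and desmin in rodent liver by stellate cells and smooth muscle. The brightest Vim probe set had 910.0 and 1062 on the OGFRL1 arrays, against 479.5 and 573 on the EGFP arrays (0.90 ± 0.16 SE, 95% interval 0.53 to 1.28). The second had 553 and 746 in OGFRL1 livers, against 397 and 329.9 in EGFP livers (0.82 ± 0.19). The third had 446 and 502 in OGFRL1 livers, against 294 and 257 in EGFP livers (0.78 ± 0.15). All 3 Vim probe sets kept the groups apart, with fold changes that differed by less than their standard errors.

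Des had 32.2 and 31.8 on the OGFRL1 arrays, against 25.8 and 25.4 on the EGFP arrays. The arrays of a group almost coincided, but the difference between groups was small (0.29 ± 0.24 SE, 95% interval -0.29 to 0.87, limma adjusted p = 0.638). The standard error is wider than these 4 values alone would give because limma draws each gene's variance towards that of genes of like signal. A second Des probe set, below the minimum, ran the other way, with 1.29 and 1.62 in OGFRL1 livers and 9.70 and 3.02 in EGFP livers. The mean over both Des probe sets was -0.31, so the sign of the Des difference depends on the probe set. The Des difference was within its error, while for Vim every OGFRL1 array was above every EGFP array on all 3 probe sets.

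Thy1 encodes a surface glycoprotein of portal fibroblasts and myofibroblasts that in mice also marks T cells. It had 33.3 and 25.04 on the OGFRL1 arrays, against 9.26 and 19.9 on the EGFP arrays. The groups did not overlap, but the spread was wide (0.91 ± 0.38 SE, 95% interval -0.014 to 1.83, limma adjusted p = 0.334). Of 8 T cell markers on the array only Cd8a reached the minimum signal, and Cd3e, Cd3d, Cd3g, Cd247, Cd2, Cd4 and Trat1 did not. The summed signal of the 8 was 33.7 and 39.0 on the OGFRL1 arrays and 55.2 and 66.5 on the EGFP arrays, which is mostly signal below the minimum, and the part of T cells in the Thy1 values was not tested.

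**Figure D2:**
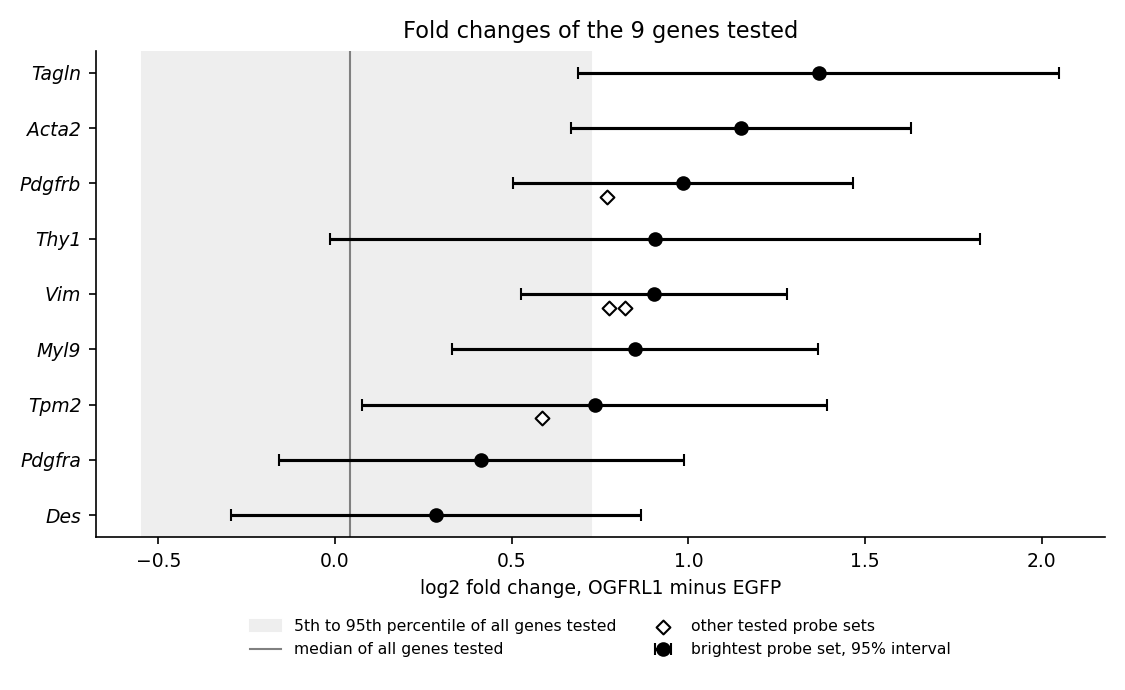
Log2 fold change (OGFRL1 minus EGFP) of the 9 genes tested, with 95% intervals for the brightest probe set and diamonds for further tested probe sets. The grey band spans the middle 90% of all genes tested and the line marks their median of 0.042. Tagln is highest at 1.37 and Des lowest at 0.29, and the intervals of Thy1, Pdgfra and Des reach below 0.

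In order of log2 fold change the members ran Tagln, Acta2, Pdgfrb, Thy1, Vim, Myl9, Tpm2, Pdgfra and Des. The 95% intervals of neighbours in this order overlap, and the differences between neighbours were not tested. Over probe sets in place of genes, 13 of the 21 were bright enough, all 13 were higher in OGFRL1 livers and 11 had both OGFRL1 arrays above both EGFP arrays, against 25.9% of all 20238 probe sets tested. None of the 13 passed an adjusted p of 0.05 (limma over all probe sets), which 0.252% of all probe sets passed upwards and 0.084% downwards, and 9 had an unadjusted p under 0.05, against 8.37% of all. Probe sets of 1 gene report the same transcript and are not replicates.

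**Figure D3:**
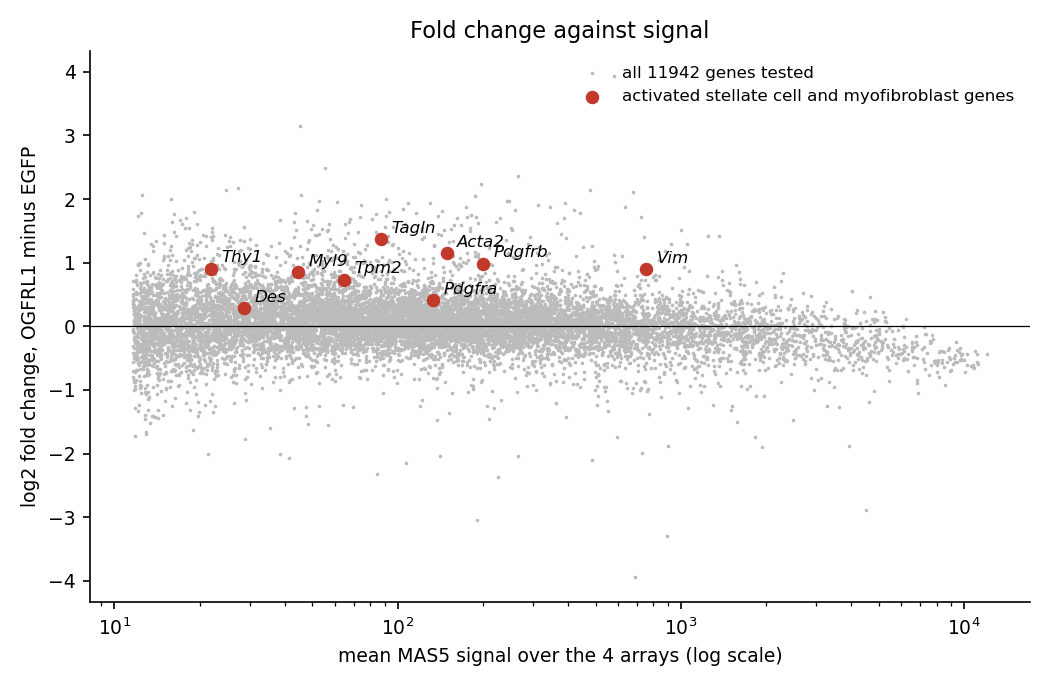
Log2 fold change (OGFRL1 minus EGFP) of the 11942 genes tested against their mean MAS5 signal (log scale), with the 9 members in red. The members span signals from 21.9 for Thy1 to 756 for Vim and all lie above 0, Des and Pdgfra within the bulk of genes of like signal.

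The 9 members did not vary together within the groups. Between the OGFRL1 arrays, Tagln, Pdgfrb, Pdgfra and Vim were higher on array 2, while Acta2, Des, Myl9, Tpm2 and Thy1 were lower on it. The log2 difference from the EGFP mean was 0.74 on OGFRL1 array 1 and 1.23 on array 2 for Pdgfrb. For Tpm2 it was 0.92 on array 1 and 0.54 on array 2, the opposite order. Between the EGFP arrays, Tagln, Pdgfra and Des were lower on array 2 and the other 6 higher. The largest differences within the EGFP group were 0.88 for Thy1 and -0.69 for Tagln (array 2 minus array 1, log2).

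**Figure D4:**
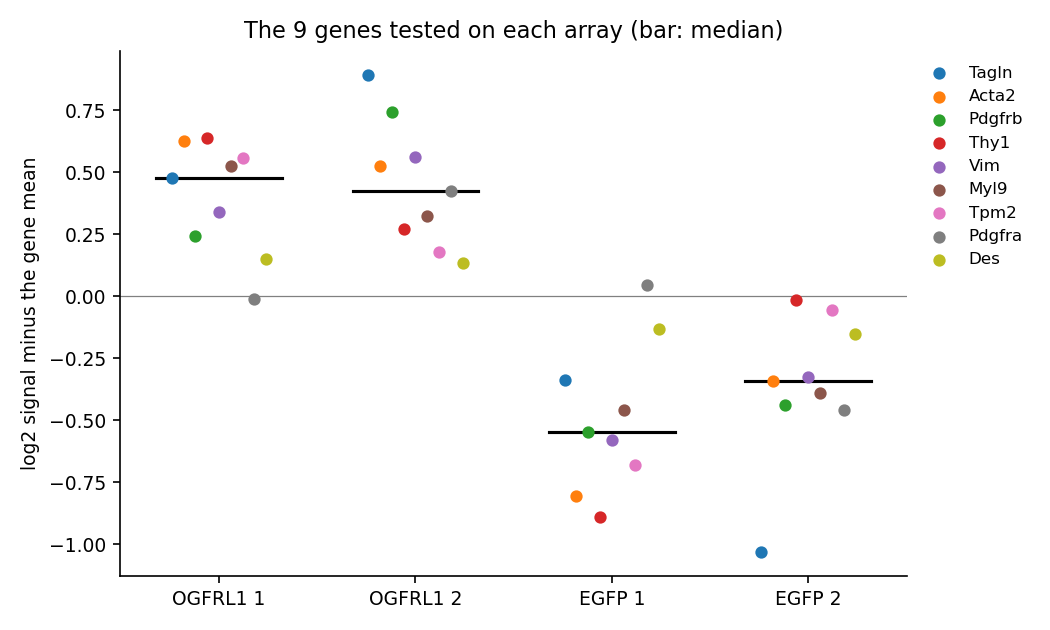
Log2 signal of the 9 genes tested minus each gene's mean over the 4 arrays, by array, with a bar at the median of the 9 genes. The medians are 0.48 and 0.42 on the OGFRL1 arrays and -0.55 and -0.34 on the EGFP arrays.

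By root mean square difference of centred log2 values over the 4 arrays, the genes most like Acta2 among 6314 genes with a mean signal of at least 100 were Snhg1 (0.053), Cav2 (0.068), Ikbip (0.084), Ung (0.12) and Ddr1 (0.12). Cav2, a caveolin of the plasma membrane, had 241 and 217 in OGFRL1 livers, against 93.5 and 132 in EGFP livers. Ddr1, a receptor tyrosine kinase that binds collagen, had 808 and 747 in OGFRL1 livers, against 295 and 496 in EGFP livers, but its mean over all its probe sets was lower in OGFRL1 livers (-0.17). With 4 arrays many genes share a profile, so this likeness is only a description.

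Other genes of the contractile apparatus were also mostly higher in OGFRL1 livers, but by less. Of 15 listed smooth muscle genes 10 could be tested, 9 of them were higher and 0 passed the threshold, with a median log2 fold change of 0.45, and 4 of the 10 were higher at an unadjusted p under 0.05. Nexn, which encodes an actin-binding protein of the Z disc, had 36.1 and 30.001 in OGFRL1 livers, against 7.94 and 14.2 in EGFP livers (1.36 ± 0.34 SE, limma adjusted p = 0.139). Tpm1, alpha-tropomyosin, had 0.60 ± 0.15, Actn1, the non-muscle alpha-actinin, 0.45 ± 0.14 and the smooth muscle protein smoothelin (Smtn) 0.86 ± 0.35. Below the minimum were Myh11, Actg2, Lmod1, Synpo2 and Pln, among them the genes most restricted to differentiated smooth muscle.

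The paralogs of the contractile members gave 10 of 12 tested genes higher and 2 lower, 0 past the threshold, with a median of 0.34 (0.077 without EGFP 2). Tagln2, the transgelin of non-muscle cells, had 989.8 and 797 in OGFRL1 livers, against 502 and 517 in EGFP livers (0.80 ± 0.15, limma adjusted p = 0.0849). Tpm4, a tropomyosin of non-muscle cells, had 549 and 594 in OGFRL1 livers, against 364 and 326 in EGFP livers (0.72 ± 0.14, adjusted p = 0.0849). Cnn2, the calponin of non-muscle cells, had 0.52 ± 0.16. Beta-actin, chosen after its values were seen, had a log2 fold change of -0.48 ± 0.23 (Actb). As deposited it did not pass the threshold (limma adjusted p = 0.376). Its value was -0.80 without EGFP 2, but -0.10 after quantile normalization, -0.13 with spike-in scaling and -0.26 as the mean over probe sets.

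Of the other intermediate filament genes 6 of 8 tested were higher, 0 past the threshold, with a median of 0.38 (0.17 without EGFP 1). The nuclear lamins Lmna and Lmnb1 had 0.61 ± 0.15 and 0.83 ± 0.26, but averaging its probe sets gave 0.24 for Lmna. The epithelial keratin Krt18 had 0.46 ± 0.19. Gfap, a filament protein of astrocytes and stellate cells, had -0.76 ± 0.34. Its signals were 11.4 and 8.15 in OGFRL1 livers and 17.6 and 20.2 in EGFP livers. All 4 ligands of the PDGF receptors were above 0, with a median of 0.32 (0.18 without EGFP 2) and 0 past the threshold. Pdgfc, a ligand of the alpha receptor that is cut to become active, had 134 and 169 in OGFRL1 livers, against 80.2 and 111 in EGFP livers (0.65 ± 0.22, limma adjusted p = 0.236). Pdgfb, the main ligand of the beta receptor, had 0.48 ± 0.31, while Pdgfa (0.16 ± 0.22) and Pdgfd (0.12 ± 0.28) had values below their standard errors.

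A list of serum response factor, its partners and some of its targets (Ccn1, Egr1, Fos and Vcl) had 5 of 9 tested genes higher, 4 lower, 0 past the threshold and a median of 0.13, which was -0.051 without OGFRL1 2. Srf itself had 56.7 and 59.3 in OGFRL1 livers, against 61.4 and 75.6 in EGFP livers (-0.22 ± 0.20 SE, but 0.11 after scaling to the spike-in controls). Its coactivator Mrtfa had 0.47 ± 0.30, the partner Fhl2 0.31 ± 0.28 and the matricellular target Ccn1 0.77 ± 0.26. Myocd, the coactivator of smooth muscle cells, was below the minimum.

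Secreted products of activated stellate cells had a median of 0.82 (0.42 without OGFRL1 2), with 11 of 12 tested genes higher, 0 past the threshold and 6 higher at an unadjusted p under 0.05. Col1a1, which encodes type I collagen, had 120 and 177 in OGFRL1 livers, against 26.8 and 42.1 in EGFP livers (2.002 ± 0.285 SE, limma adjusted p = 0.0503). It passed the threshold with equal medians (limma adjusted p = 0.0477), 4 times the pseudocount (0.0474), the replicate number as a block (0.0257) or spike-in scaling. It did not pass with quantile normalization (0.0622), a floor in place of the pseudocount (0.0519) or a stricter filter (0.0594). Nor did it pass with no filter (0.107) or no intensity trend (0.151). As the mean over its probe sets it had a log2 fold change of 1.41 and did not pass (0.0804). Ccn2, a profibrotic matricellular protein, had 1.05 ± 0.16, Col5a1 0.85 ± 0.18 and Col6a3 1.15 ± 0.26. Quiescent stellate cell markers had a median of 0.071 (-0.013 without OGFRL1 2), near that of all genes, with 9 of 13 tested higher, 4 lower and 0 past the threshold. Among them Hand2, a transcription factor of stellate cells, had 97.4 and 132 in OGFRL1 livers, against 63.4 and 57.6 in EGFP livers (0.87 ± 0.21; averaging its probe sets gave 0.15). Reln, which encodes the secreted protein reelin, had 0.25 ± 0.15, Rgs5 -0.40 ± 0.17 and Angptl6 -0.57 ± 0.23.

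**Figure D5:**
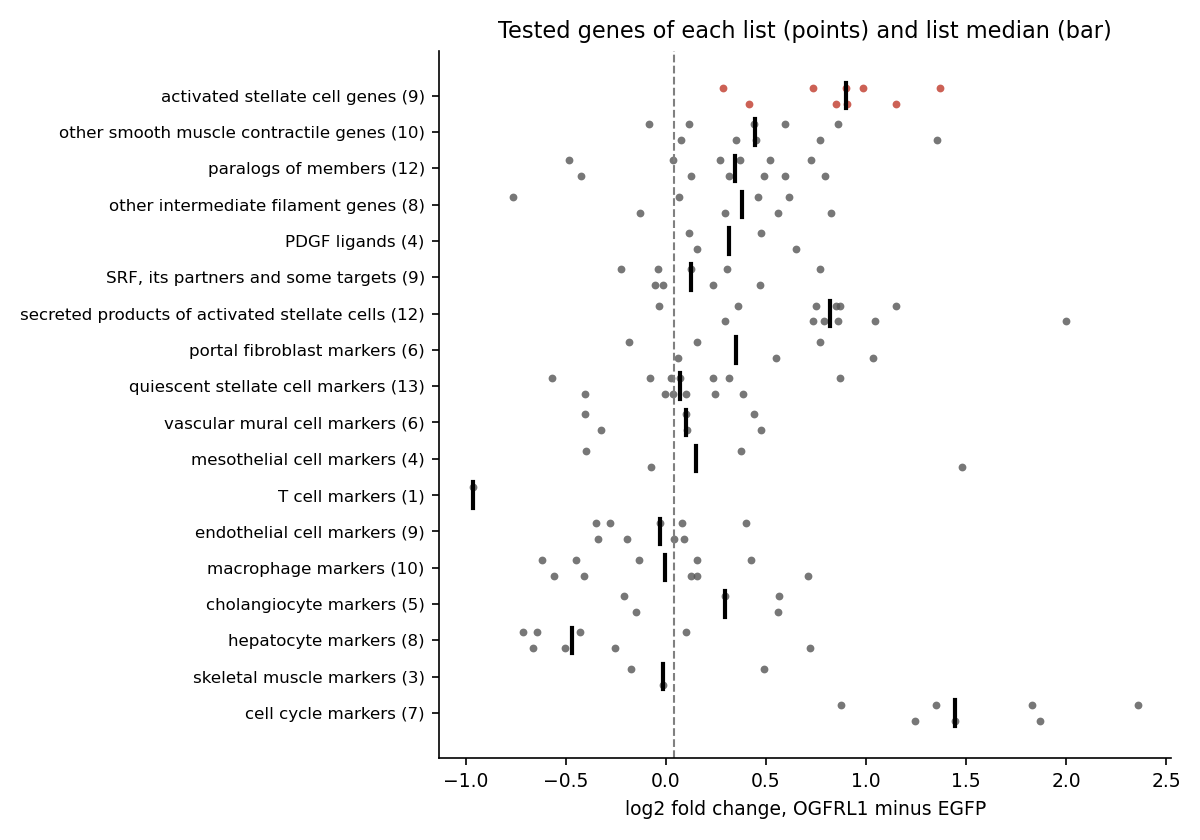
Log2 fold change (OGFRL1 minus EGFP) of every tested gene of each list (points) with the list median (bar), the number tested in parentheses and the median of all genes tested as a dashed line. The members have a median of 0.90, secreted products 0.82, quiescent stellate cell markers 0.071, hepatocyte markers -0.47 and cell cycle markers 1.44.

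Markers of other cell types that make some of these transcripts were set beside them. Portal fibroblast markers had a median of 0.35 (0.090 without EGFP 1 and -0.061 under a stricter filter), with 5 of 6 tested higher, and their summed signal was 533 and 487 on the OGFRL1 arrays, against 468 and 450.5 on the EGFP arrays. Vascular mural cell markers had a median of 0.10 (4 of 6 tested higher), which was -0.11 under a stricter filter and -0.12 as the mean over probe sets. Their sums were 1052 and 969.9 in OGFRL1 livers and 1195 and 1036 in EGFP livers. Such sums are weighted to the brightest genes. These were Rgs5 for mural cells (585 and 508 in OGFRL1 livers, 819 and 638 in EGFP livers) and Gas6 for portal fibroblasts (319 and 250 in OGFRL1 livers, 296 and 247 in EGFP livers). Endothelial markers, from cells that also make vimentin, had a median of -0.031 (4 of 9 higher), with sums of 2267 and 2551 in OGFRL1 livers and 2514 and 2525 in EGFP livers. Macrophage markers had a median of -0.0022 (5 of 10 higher), with sums of 7083 and 11585 in OGFRL1 livers and 13592 and 5492 in EGFP livers. The endothelial and macrophage medians were above 0 when arrays were scaled to equal medians (0.018 and 0.047) or to the spike-in controls (0.31 and 0.35), and the macrophage median was 0.061 after quantile normalization. Cholangiocyte markers had a median of 0.30 (3 of 5 higher; -0.030 without EGFP 1), with sums of 125 and 132 in OGFRL1 livers and 116 and 129.7 in EGFP livers. Skeletal muscle markers, which would accompany Des, had a median of -0.012 (1 of 3 tested higher; 0.028 with equal medians and 0.28 with spike-in scaling), with sums of 64.1 and 63.1 in OGFRL1 livers and 71.6 and 61.4 in EGFP livers. Mesothelial markers had a median of 0.15 (2 of 4 tested higher; 0.037 without OGFRL1 2), with sums of 75.7 and 151 in OGFRL1 livers and 61.6 and 66.5 in EGFP livers. The mesothelial gene Upk3b, chosen after its values were seen, had 1.85 and 37.0 in OGFRL1 livers and 1.36 and 0.841 in EGFP livers. Its mean signal of 10.3 was below the minimum, and OGFRL1 array 2 stood apart in it. The same array was highest for Gpm6a (23.8 and 44.9 in OGFRL1 livers, 6.82 and 12.9 in EGFP livers). It was also highest for Lrrn4, Wt1 and Msln, at low mean signals of 13.5, 14.7 and 10.5. For Upk1b it was lowest (17.8 and 11.8 in OGFRL1 livers, 17.3 and 23.6 in EGFP livers). The part of these cell types in the members' differences was not tested.

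Hepatocyte markers were all measured in every group, as liver tissue requires, with 2 of 8 higher, 6 lower, 0 past the threshold and a median of -0.47, which was -0.029 after quantile normalization. Alb, serum albumin, had 7041 and 7930 in OGFRL1 livers, against 16107 and 9313 in EGFP livers (-0.71 ± 0.26 SE). Its value was -0.16 after quantile normalization, -0.32 without EGFP 1 and -1.11 without EGFP 2, where it passed the threshold (limma adjusted p = 0.00562). All 7 tested cell cycle markers were higher, with 3 past the threshold (Rrm2, Birc5 and Mcm5) and a median of 1.44. The mouse genes Ogfrl1 (-0.051 ± 0.16) and Ogfr (-0.25 ± 0.15), the opioid growth factor receptor, did not pass the threshold and were at 0.29 and 0.091 with spike-in scaling, and the human transgene was not checked by these mouse probe sets. Spike-in controls, added in equal amounts by the standard protocol, were lower by a mean log2 of -0.35 over 18 probe sets. Scaling to these controls shifted the median of all genes tested to 0.38 and that of the members to 1.20. Then 8 of the 9 members passed the threshold, all but Des, where 1511 genes passed in all. Every gene of an array is shifted alike by this scaling. An error in that shift would be shared by all genes, which the adjusted p-values do not allow for. Relative to the median of all genes, the members were at 0.86 as deposited and 0.83 after that scaling. The ratio of the 3′ to the 5′ actin control probe sets, a sign of RNA integrity, was 1.69 and 1.69 on the OGFRL1 arrays, against 1.57 and 1.94 on the EGFP arrays, so it did not separate the groups.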

How the data were processed

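Signals were taken from single-colour Affymetrix arrays, 2 per group. The deposited values are linear-scale intensities for each probe set, made with MAS5 per the submitters' processing notes. The version and the detection calls are not given in the sources used here. Of 45101 probe sets, 64 were controls, 34945 had 1 gene symbol, 932 several and 9160 none. Signals were log2-transformed after adding 3.51, the 25th percentile of all values, with no further normalization. The brightest probe set by mean signal stood for a gene, which was tested if this mean reached 11.6, the median of all probe set means. Groups were compared with limma 3.58.1 (lmFit, eBayes with an intensity trend) in R 4.3.3, 2-sided, with Benjamini-Hochberg adjustment at 0.05. The fit had 2 residual and 4.48 prior degrees of freedom. The pipeline was tested on simulated data. Figures and motif searches used Python 3.11.15.

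The members and lists were chosen with earlier results of these data known. The members are all named. Of each other list described by gene, up to 4 tested genes were named in order of absolute moderated t. Ogfrl1, Ogfr, Alb and Col1a1 were always named. The 5 genes most like Acta2 were also named. The CArG search with a mismatch was added after the motifs were fixed. Both groups have replicates 1 and 2 in the labels, but nothing there ties a number to a common animal or batch.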

Additional observations from a re-analysis of the deposited data

How the results depend on the processing

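The 9 tested members kept a positive log2 fold change in the alternatives run, except Des, at -0.31 when its probe sets were averaged. The median of the members was 0.69 with 4 times the pseudocount and 1.20 after scaling to the spike-in controls, and 0.75 to 1.03 with an array left out. The number of members past the threshold was 8 with spike-in scaling, where 1511 of all genes passed. With an array left out, only fold changes are given for the members, as 1 group then holds a lone array. A lone array is then assumed to vary like the other group. Fold changes that 1 array moved by over 1.5 times were Thy1 (0.47 without EGFP 1), Tpm2 (0.42 without EGFP 1) and Pdgfra (0.67 without EGFP 1, 0.16 without EGFP 2, 0.63 without OGFRL1 1 and 0.20 without OGFRL1 2), none of which passed the threshold as deposited.

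The number of genes past the threshold, 61 as deposited, was 4 with quantile normalization, 1511 with spike-in scaling, 94 with 4 times the pseudocount, 21 under a stricter filter (4 times the minimum), 13 as the mean over probe sets, and 0 in limma with no filter or with no intensity trend (2179 and 1654 at an unadjusted p under 0.05). With an array left out it was 0 to 856 (619 without EGFP 1, 856 without EGFP 2, 0 without OGFRL1 1, 2 without OGFRL1 2). For probe sets, 68 as deposited, it was 12 with quantile normalization, 104 with equal medians, 1821 with spike-in scaling, 116 with 4 times the pseudocount, 0 without a filter or a trend (3673 and 2537 at an unadjusted p under 0.05), and 0 to 1105 with an array left out. The cause was not tested.

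Other genes changed sign in some settings. With spike-in scaling Ogfrl1 was at 0.29, Ogfr at 0.091 and Srf at 0.11. Ddr1 was at -0.17 as the mean over probe sets. Of the other genes named, Tagln2, Tpm4, Ccn2, Snhg1, Cav2, Ung and Ddr1 passed the threshold with either EGFP array left out, Lmna, Lmnb1 and Krt18 without EGFP 1, and Nexn, Pdgfc and Ikbip without EGFP 2. With an array left out, Ogfrl1 ran between -0.145 and 0.044, Pdgfa between -0.13 and 0.45, Pdgfd between -0.047 and 0.28, and Fhl2 between -0.044 and 0.66. With the replicate number as a block the counts were 59 genes and 60 probe sets, the members' median stayed at 0.90 and 0 of the 9 passed. Deviations of same-numbered arrays correlated at -0.28 across genes, so the numbers were not taken as pairs.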
